A study of Mus musculus with 27 samples.

Results

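The 8 genes described here, Pparg, Cebpa, Cebpb, Cebpd, Rxra, Ebf1, Klf15 and Ppara, encode transcription factors that drive or accompany the making of fat cells, and their RNA was read in epididymal adipose tissue (EAT) from mice on 3 diets. They were matched by symbol in the annotation of the array, and all 8 of 8 were found among the 18193 genes tested. For each gene the probe set (a set of oligonucleotides for the 3' end of a messenger RNA) with the highest mean over the arrays was used among those annotated to 1 gene. This rule did not use the differences between diets. Male C57BL/6J mice, which arrived at 5 weeks of age and were kept 3 per cage, ate 1 of 3 diets for 18 weeks, with 9 mice and 1 array per mouse for each. The WQ mice ate a Western diet (much fat and sucrose, with cholesterol) to which 0.05% quercetin had been added. Quercetin is a plant flavonol. The WD mice ate the Western diet alone, and the control mice ate AIN93G, a purified rodent diet. EAT is a visceral fat depot that lies against the testis and epididymis and holds fat cells, macrophages, stromal cells and vessels. Which mice shared a cage is not given, so the p-values measure the spread between these mice.

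Fat cells form in a relay of transcription factors. C/EBPβ and C/EBPδ, basic leucine zipper proteins, come on first when a precursor is stimulated, and they switch on PPARγ and C/EBPα, which hold each other up and turn on the genes of fat storage and insulin response. PPARγ is a nuclear receptor that binds DNA as a pair with RXRα, and it is the target of the thiazolidinedione drugs. EBF1 and the Krüppel-like factor KLF15 favour the same programme, and PPARα is the relative of PPARγ that is best known for turning on fatty acid oxidation in liver. C/EBPβ and C/EBPδ also act in macrophages and in the acute-phase response, EBF1 is a founding factor of B cells, and KLF15 is induced by glucocorticoids and by fasting and acts on genes of glucose uptake and amino acid breakdown.

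The stretches before the starts of 3 members are printed because these members stand for the outcomes below, namely the member that fell (Klf15), a central member whose means lay close together (Pparg) and an early member of the relay (Cebpb). Each is the 250 bases before a start listed by RefSeq (GRCm38.p6), read 5′ to 3′ on the + strand. Capitals mark CACGTG, the E-box, in Klf15 (chr6:90462326-90462575), TTGCNNAA, a C/EBP-type motif, before the most downstream of the 3 listed starts of Pparg (chr6:115421816-115422065), and TGACG, the core of the cAMP response element, in Cebpb (chr2:167688665-167688914), all searched on both strands.
Klf15: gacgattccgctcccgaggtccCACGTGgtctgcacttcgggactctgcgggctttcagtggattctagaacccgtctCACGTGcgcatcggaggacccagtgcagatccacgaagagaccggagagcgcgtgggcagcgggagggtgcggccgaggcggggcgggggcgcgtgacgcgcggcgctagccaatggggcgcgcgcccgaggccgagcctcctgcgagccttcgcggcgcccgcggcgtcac
Pparg: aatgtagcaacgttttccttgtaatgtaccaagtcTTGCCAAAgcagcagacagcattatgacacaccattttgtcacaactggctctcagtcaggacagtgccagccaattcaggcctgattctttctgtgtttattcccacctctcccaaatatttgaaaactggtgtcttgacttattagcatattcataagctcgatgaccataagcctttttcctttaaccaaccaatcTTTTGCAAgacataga
Cebpb: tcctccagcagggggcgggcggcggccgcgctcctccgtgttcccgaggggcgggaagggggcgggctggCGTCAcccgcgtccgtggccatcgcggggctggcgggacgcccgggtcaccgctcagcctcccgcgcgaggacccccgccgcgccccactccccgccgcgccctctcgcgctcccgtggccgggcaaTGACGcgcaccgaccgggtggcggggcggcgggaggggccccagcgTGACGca
The E-box stood 2 times in the Klf15 stretch, beginning at positions -228 and -172 counted back from the start, and 6.02% of the 32851 stretches of the same length held it. TTGCNNAA stood 2 times in the Pparg stretch, at -215 and -16, and 9.56% of all stretches held it. TGACG stood 3 times in the Cebpb stretch, at -180, -53 and -7, and 17.8% of all held it, those of Klf15 and Ppara included. These motifs were chosen after several had been looked for, and they describe the letters and not binding. The table held starts for 7 of the 8 members.

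Of the 8 members, Klf15 was lower in WD mice than in control mice, and the other 7 did not pass in any comparison. A gene was called when the adjusted p of limma, with Benjamini-Hochberg adjustment over all genes, was under 0.05. Between WD and control mice 1 of the 8 was lower and 0 were higher, where 6.44% of all genes were lower and 11.3% were higher. Between WQ and WD mice 0 of 8 passed in either direction, where 0.253% of all genes were higher and 0.077% lower. Between WQ and control mice 0 of 8 passed, where 5% of all genes were higher and 1.65% lower. The test of the 3 diets together passed 1 of 8, against 16% of all genes. The members' median log2 fold changes were -0.04 for WQ minus WD and -0.07 for WD minus control, beside 0.02 and -1.84e-05 over all genes. In no member did the 9 mice of a diet lie wholly apart from the 9 of another, as they did in 0.269% of all genes between WQ and WD, 1.3% between WD and control and 0.253% between WQ and control.

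**Figure D1:**
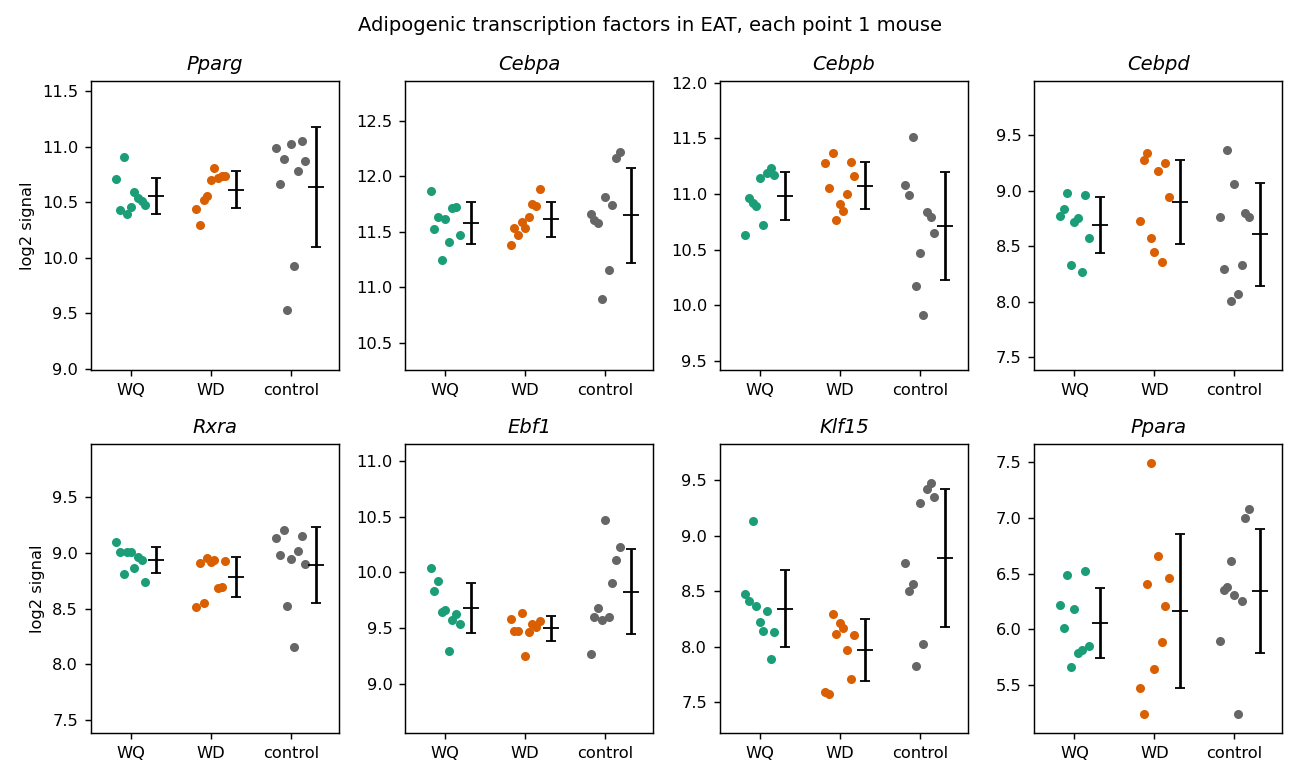
Log2 signal (vertical axis, normalized between arrays) of the 8 members on each diet, with 1 point per mouse and the mean and SD drawn to its right (n = 9 per diet), and axes that all span the same range of log2 units. In Klf15 the control points lie above the highest WD point except those of control replicates 4 and 6, and in Pparg these replicates are the lowest points of all diets.

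RNA of neighbouring tissue was present on some arrays, which bears on each value below. The mean log2 signal over the adipocyte markers was high on every array. It was 11.73 to 12.02 in WQ mice, 11.67 to 11.90 in WD mice and 11.54 to 12.03 in control mice. Control replicates 4 and 6 had the lowest means of all arrays, 11.54 and 11.62. The mean over the testis and epididymis markers was 12.94 on control replicate 6 and 7.40 on control replicate 9, 9.17 on WD replicate 7 and 8.97 on WQ replicate 5. The mean over the smooth muscle markers was 12.17 on control replicate 4 and 11.69 on control replicate 2. These 6 arrays, 1 of WQ, 1 of WD and 4 of control mice, lay over 3 log2 units above the median of all 27 arrays in one of these lists. Markers of B cells and lymph node were a further list, which marked no array at this limit. A limit of 2 units in the same lists marked 11 arrays, 6 of them control. Control replicate 3 was marked by the list of B cells and lymph node alone (mean 6.15). Without the 6 arrays 8 WQ, 8 WD and 5 control mice remained, and without the 11 arrays 6 WQ, 7 WD and 3 control mice. Macrophage markers differed with diet, with a mean log2 signal of 9.59 ± 0.61 in WQ, 10.37 ± 0.48 in WD and 8.78 ± 0.45 in control mice (SD, n = 9), and 17 of 18 rose in WD over control mice. Markers of adipocyte progenitors and stroma had 9.17 ± 0.16 in WQ, 9.32 ± 0.14 in WD and 8.85 ± 0.35 in control mice (SD, n = 9), and 5 of 12 rose in WD over control mice, or 4 without the 6 arrays. Of 11 adipocyte markers, 3 fell and 1 rose in WD against control mice, where 6.44% of all genes fell and 11.3% rose. Without the 6 arrays 3 fell and 0 rose, where 4.78% and 5.6% of all genes did. In whole tissue, fewer cells of a type and less RNA per cell cannot be told apart. The 3' to 5' ratio of the actin control probe sets, a measure of RNA quality, was 1.14 ± 0.19 log2 units in WQ mice, 0.79 ± 0.12 in WD mice and 1.11 ± 0.29 in control mice (SD, n = 9). It was higher in WQ than in WD mice (difference 0.35, exact permutation p = 0.000123, two-sided) and lower in WD than in control mice (-0.33, exact permutation p = 0.00362). The Gapdh ratio gave 0.24 (exact permutation p = 0.00699) and -0.19 (p = 0.0548) for the same comparisons. The part of the ratios, the fat cells, the macrophages, the stroma and the neighbouring tissue in the members' values was not tested beyond leaving arrays out.

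Klf15 was the member with the clearest difference. Its log2 signal ran from 7.89 over a median of 8.32 to 9.13 in WQ mice. In WD mice it ran from 7.57 over 8.11 to 8.29, and in control mice from 7.83 over 8.75 to 9.48. The WQ mice overlapped both other diets, and the WD mice lay below all control mice but replicates 4 and 6. The means were 8.34 ± 0.35 in WQ, 7.97 ± 0.28 in WD and 8.80 ± 0.62 in control mice (SD, n = 9), which on the linear scale were signals of 334, 255 and 482. Klf15 fell in WD mice by 0.83 on the log2 scale (SE 0.20, 95% interval -1.23 to -0.43, limma adjusted p = 0.0034), so that it was 1.78-fold lower than in control mice. The WQ mean lay between the others, with a log2 fold change of 0.37 over WD (95% interval -0.03 to 0.77, limma adjusted p = 0.415) and -0.46 against control (-0.86 to -0.06, adjusted p = 0.158), and neither passed. Over 15 other ways of processing the WD difference stayed between -1.21 and -0.74 and passed in all 15, and it passed in all 27 runs that left out 1 array. Without the 6 arrays with markers of other tissues the WQ difference from control was -0.74 and passed (limma adjusted p = 0.0468, 5 control mice kept). Without the 11 arrays it was -0.94 (adjusted p = 0.0164, 3 control mice kept). Control replicates 4 and 6, the lowest controls, are among the arrays with smooth muscle and testis markers.

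Ebf1 gave lower values in WD mice that did not pass with the probe set used and passed with others. With the probe set used, its log2 signal ran from 9.30 over a median of 9.64 to 10.04 in WQ mice. In WD mice it ran from 9.24 over 9.51 to 9.63, and in control mice from 9.27 over 9.68 to 10.47. The SD was 0.11 among WD mice and 0.38 among control mice (n = 9 each), whose values spread upward. The log2 fold change was -0.33 for WD minus control (SE 0.12, limma adjusted p = 0.0533), 0.19 for WQ minus WD (adjusted p = 0.541) and -0.14 for WQ minus control (adjusted p = 0.522). In 7 of the 27 runs that left out 1 array the WD difference passed, the smallest adjusted p being 0.012 without control replicate 1. It also passed with array weights (-0.38, limma adjusted p = 0.0152) and with its probe sets averaged (-0.39, adjusted p = 0.0416). The gene has 5 probe sets, and all 5 had lower means in WD than in control mice. Probe set 1416301_a_at had means of 9.60 ± 0.21 in WQ, 9.26 ± 0.22 in WD and 9.97 ± 0.55 in control mice (SD, n = 9), and it was lower in WD mice (log2 fold change -0.71, limma adjusted p over all probe sets = 0.00278). Probe set 1416302_at was lower in WD mice (-0.58, adjusted p = 0.00146) and in WQ mice (-0.42, adjusted p = 0.0366) than in control mice. The 2 others had -0.26 (1439789_at, adjusted p = 0.187) and, at low signal, -0.09 (1457441_at, adjusted p = 0.882). Markers of B cells, in which Ebf1 is also active, had mean log2 signals of 2.93 to 4.51 in WQ mice, 3.29 to 3.89 in WD mice and 2.84 to 6.15 in control mice. Of these markers 0 of 8 passed for WD minus control, and the part of B cells in the Ebf1 values was not tested.

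**Figure D2:**
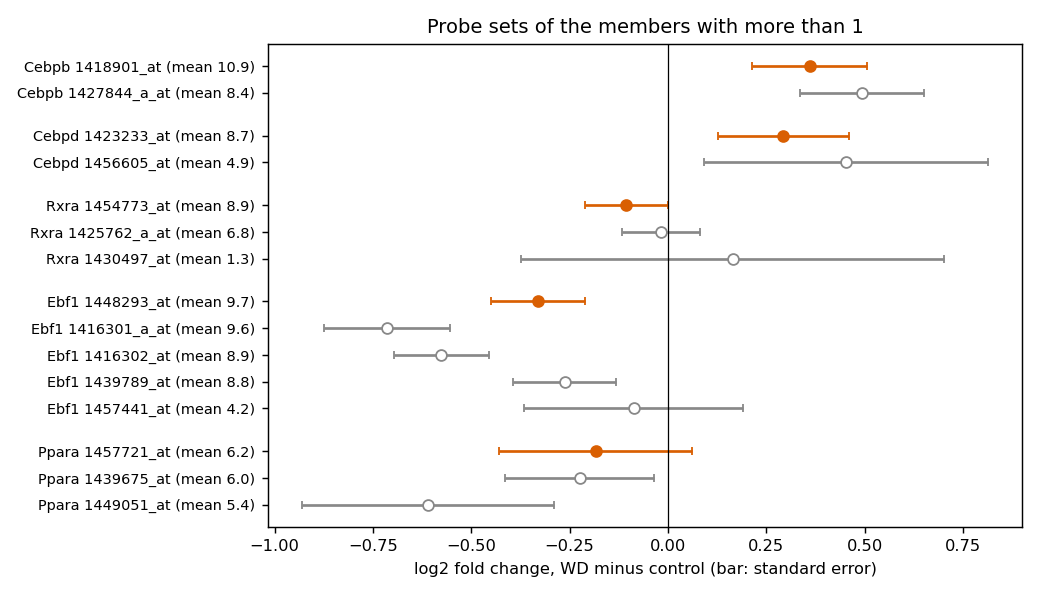
Log2 fold change of WD minus control mice (horizontal axis, bars: standard error, 9 mice per diet) for each probe set of the 5 members that have several, filled where the probe set stands for the gene, with the mean log2 signal over all arrays in brackets. All 5 Ebf1 probe sets lie below 0 and both Cebpb probe sets above it.

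Pparg and Cebpa, the pair at the centre of the programme, had means that lay close together on the 3 diets. For Pparg the log2 signal ran from 10.39 over a median of 10.51 to 10.91 in WQ mice and from 10.30 over 10.70 to 10.81 in WD mice. In control mice it ran from 9.53 over 10.87 to 11.05, with replicates 4 and 6 below every mouse of the other diets. The log2 fold change was -0.05 for WQ minus WD (95% interval -0.36 to 0.25, limma adjusted p = 0.931) and -0.02 for WD minus control (-0.33 to 0.28, adjusted p = 0.938). This result changed when arrays with RNA of other tissues were left out, control replicates 4 and 6 among them. Without the 6 arrays, with 5 control mice kept, Pparg was lower in WD than in control mice (log2 fold change -0.35, limma adjusted p = 0.0177). It was also lower in WQ than in control mice (-0.38, adjusted p = 0.0372). Without the 11 arrays, with 3 control mice kept, these were -0.36 (adjusted p = 0.0199) and -0.44 (adjusted p = 0.0272). With a shift to equal medians instead of quantile normalization, called the median shift below, and all arrays kept, the WD difference was 0.12 (adjusted p = 0.705).

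Cebpa ran from 11.25 over a median of 11.62 to 11.86 log2 units in WQ mice, from 11.38 over 11.59 to 11.89 in WD mice and from 10.89 over 11.66 to 12.22 in control mice. The WQ and WD mice lay within the span of the control mice. Its log2 fold change was -0.03 for WQ minus WD (95% interval -0.29 to 0.23, limma adjusted p = 0.949) and -0.03 for WD minus control (-0.29 to 0.23, adjusted p = 0.894). The sign of both turned with no normalization, and that of WD minus control also with the median shift, while no alternative passed.

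Rxra, the partner of the PPARs, ran from 8.74 over a median of 8.96 to 9.10 log2 units in WQ mice. In WD mice it ran from 8.51 over 8.91 to 8.95, and in control mice from 8.16 over 8.98 to 9.21. The 3 medians were close together, and control replicate 6 was the lowest array. The log2 fold change was 0.15 for WQ minus WD (95% interval -0.06 to 0.37, limma adjusted p = 0.583) and -0.11 for WD minus control (-0.32 to 0.11, adjusted p = 0.543). Without the 6 arrays with markers of other tissues it was lower in WD than in control mice (-0.29, limma adjusted p = 0.0273). Rxra, Ebf1 and Klf15 had positive values for WQ minus WD and negative ones for WD minus control, the same signs as both 3' to 5' ratios, and what part the ratios have in this was not tested.

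Cebpb and Cebpd, the early members, had their highest means in WD mice. The log2 signal of Cebpb ran from 10.63 over a median of 10.96 to 11.23 in WQ mice and from 10.76 over 11.05 to 11.37 in WD mice. In control mice it ran from 9.92 over 10.79 to 11.52, so that the lowest and the highest mouse of all were both controls. The log2 fold change was 0.36 for WD minus control (95% interval 0.06 to 0.66, limma adjusted p = 0.0898) and -0.09 for WQ minus WD (-0.39 to 0.21, adjusted p = 0.868). For WQ minus control it was 0.27. With the 6 arrays with markers of other tissues left out, the WD and WQ differences from control were 0.14 and 0.025 (limma adjusted p = 0.568 and 0.956). Without control replicate 3, the highest control, the WD difference was 0.46 and passed (limma adjusted p = 0.0134). With the median shift it was 0.51 and passed (adjusted p = 0.0464). The other Cebpb probe set, 1427844_a_at, was higher in WD mice, with means of 8.39 ± 0.19 in WQ, 8.68 ± 0.19 in WD and 8.19 ± 0.55 in control mice (SD, n = 9; log2 fold change 0.49, limma adjusted p over all probe sets = 0.0325). Macrophages, in which C/EBPβ is active, and stroma had higher markers in WD mice as given above.

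Cebpd ran from 8.26 over a median of 8.76 to 8.98 log2 units in WQ mice, from 8.36 over 8.94 to 9.33 in WD mice and from 8.00 over 8.76 to 9.37 in control mice. The diets overlapped over most of this span. Its log2 fold change was -0.21 for WQ minus WD (95% interval -0.55 to 0.13, limma adjusted p = 0.651) and 0.29 for WD minus control (-0.05 to 0.64, adjusted p = 0.244). The WD difference was 0.10 with the 6 arrays left out (limma adjusted p = 0.764), and WQ minus control was -0.18 there, against 0.08 with all arrays. Its other probe set had 0.45 for WD minus control (adjusted p over all probe sets = 0.447).

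Ppara had the largest standard error of the members, 0.25 log2 units for each comparison. Its log2 signal ran from 5.66 over a median of 6.01 to 6.52 in WQ mice, from 5.24 over 6.21 to 7.50 in WD mice and from 5.24 over 6.35 to 7.08 in control mice. The WQ mice were the closest to one another, at an SD of 0.31, against 0.70 in WD and 0.56 in control mice (n = 9 each). Its log2 fold change was -0.11 for WQ minus WD (95% interval -0.61 to 0.40, limma adjusted p = 0.917), -0.18 for WD minus control (-0.69 to 0.32, adjusted p = 0.667) and -0.29 for WQ minus control (-0.80 to 0.22, adjusted p = 0.54). Its 2 other probe sets had -0.22 and -0.61 for WD minus control, and neither passed. Leaving out 1 array moved the WD difference between -0.35 (without WD replicate 4) and -0.07 (without WD replicate 2).

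**Figure D3:**
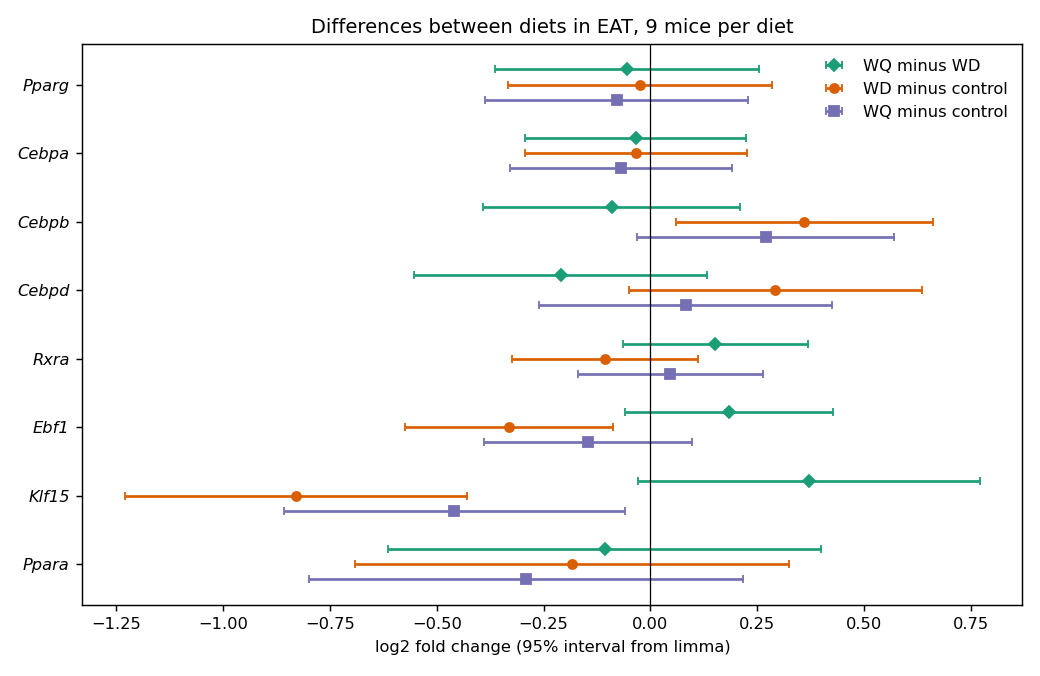
Log2 fold change between diets (horizontal axis) of the 8 members, with 95% intervals from limma (9 mice per diet), for WQ minus WD (diamonds), WD minus control (circles) and WQ minus control (squares). The Klf15 interval for WD minus control ends at -0.43 and that for WQ minus WD includes 0.

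Other genes of the programme were read from lists chosen with earlier results of these data known. Among 22 further factors that favour adipogenesis, 5 fell and 1 rose in WD against control mice, where 6.44% of all genes fell and 11.3% rose. Mlxipl, which encodes the glucose-responsive factor ChREBP, averaged 8.54 ± 0.32 log2 units in WQ, 8.39 ± 0.15 in WD and 9.16 ± 0.50 in control mice (SD, n = 9), and it fell in WD mice (log2 fold change -0.77, limma adjusted p = 0.00101). Nr3c1, the glucocorticoid receptor, fell as well (-0.42, adjusted p = 0.00223), and Egr2, an early growth response factor, rose (1.50, adjusted p = 0.00727). These 3 also passed without the 6 arrays with markers of other tissues. Of 21 factors that hold adipogenesis back, 3 fell and 1 rose. Nr2f2, the nuclear receptor COUP-TFII, fell (-0.81, limma adjusted p = 0.00105) and also did so without the 6 arrays (-0.62, adjusted p = 0.00651). Gata3, a zinc finger factor, had -2.78 (limma adjusted p = 0.0191), but its signal was 9.33 and 10.37 on control replicates 2 and 4, the arrays with smooth muscle markers, and at most 6.24 on the other 25 arrays, and it did not pass without the 6 arrays (adjusted p = 0.0884). Twist1, a basic helix-loop-helix repressor, rose (0.48, limma adjusted p = 0.0175) and did not pass without the 6 arrays (adjusted p = 0.16).

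Over all genes 11.3% rose and 6.44% fell in WD against control mice. Of 6 measured relatives of the PPARs, RXRα and the C/EBPs, 1 rose, namely Nr1h3, the oxysterol receptor LXRα (log2 fold change 0.29, limma adjusted p = 0.0449). Without the 6 arrays Nr1h3 had 0.11 and did not pass (adjusted p = 0.516). Of 17 coactivators and corepressors, 2 fell in WD mice, Nrip1, the corepressor RIP140 (-0.48, limma adjusted p = 0.000665), and Ncoa6 (-0.24, adjusted p = 0.00871). Nrip1 also passed without the 6 arrays (-0.47, adjusted p = 0.0145), and Ncoa6 did not (adjusted p = 0.083). Ppargc1a, a coactivator of the PPARs, had -0.60 and did not pass.

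Of 25 adipocyte targets of PPARγ and C/EBPα, 4 rose and 3 fell in WD against control mice, with a list median of -0.04, where 11.3% of all genes rose and 6.44% fell. Acss2, which makes acetyl-CoA from acetate, rose (log2 fold change 1.05, limma adjusted p = 5.06e-05). Slc2a4, which encodes the insulin-responsive glucose transporter GLUT4 and is a known target of KLF15, averaged 9.78 ± 0.37 log2 units in WQ, 9.34 ± 0.30 in WD and 10.04 ± 0.36 in control mice (SD, n = 9) and fell in WD mice (-0.70, adjusted p = 0.00193). Acaca, the first enzyme of fatty acid synthesis, fell (-0.88, adjusted p = 0.00249). Of the 25, 1 was higher and 2 were lower without the 6 arrays, where 5.6% and 4.78% of all genes were, and Acss2, Slc2a4 and Acaca passed there too. The storage genes Fabp4, which encodes a fatty acid carrier, and Lpl, which encodes lipoprotein lipase, had 0.01 and -0.00223, both with signals near the top of the scale of these arrays. Of 19 PPARα targets, 3 rose and 1 fell in WD mice. Pdk4, which holds back glucose oxidation, rose (1.34, limma adjusted p = 3.53e-05), and Acadl, an acyl-CoA dehydrogenase, rose (0.32, adjusted p = 0.00201) but did not pass without the 6 arrays (adjusted p = 0.0743). Acadvl, another acyl-CoA dehydrogenase, fell (-0.27, adjusted p = 0.0402). Leaving out the 6 arrays left 1 of the 19 higher, Pdk4, and 1 lower, Acadvl. In WQ mice 7 of the 19 were higher than in control mice and 0 lower, where 5% and 1.65% of all genes were. Without the 6 arrays these were 2 and 0, where 0.885% and 0.511% of all genes were.

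Of 15 genes induced by glucocorticoids, 5 rose and 0 fell in WD against control mice, where 11.3% of all genes rose and 6.44% fell. Klf15 and Nr3c1, which do not stand in this list, fell. The metallothionein genes Mt2 (log2 fold change 1.00, limma adjusted p = 0.00011) and Mt1 (0.55, adjusted p = 0.000356) and the cell cycle inhibitor Cdkn1a (1.14, adjusted p = 0.00929) were among the 5, and the classical glucocorticoid targets Fkbp5 and Per1 had -0.17 and 0.08 and did not pass. Of the 15, Mt2 and Mt1 were the 2 that were higher without the 6 arrays, where 5.6% of all genes were. Cdkn1a did not pass there (limma adjusted p = 0.128). Without the 11 arrays, with 3 control mice kept, 4 of the 15 were higher, where 5.33% of all genes were. Cdkn1a passed in that setting (log2 fold change 1.21, limma adjusted p = 0.0344). Angptl4, also one of the 5, stands in the list of adipocyte targets as well. Of 15 targets of C/EBPβ and C/EBPδ in inflammation, 4 rose and 0 fell, led by Saa3, an acute-phase serum amyloid (3.25, limma adjusted p = 6.38e-05), Orm2, an acid glycoprotein (1.94, adjusted p = 0.00033), and Ccl2, a monocyte chemokine (mean log2 signals of 8.62 in WD and 7.22 in control mice, adjusted p = 0.00929). Without the 6 arrays 2 were higher, Saa3 (2.48, adjusted p = 0.0131) and Orm2 (1.66, adjusted p = 0.018), and Ccl2 did not pass (0.78, adjusted p = 0.246). Without the 11 arrays 4 of the 15 inflammation targets were higher, Saa3 and Orm2 among them, and Ccl2 did not pass (limma adjusted p = 0.0814). The macrophage and stromal markers that rose in WD mice moved with both lists, and their part was not tested.

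Between WQ and WD mice 0 genes passed limma in each of these 8 lists, where 46 of all 18193 genes were higher (0.253%) and 14 lower (0.077%). At an unadjusted p under 0.05, 1330 of all genes were higher and 1166 lower. The medians of the list of inflammation targets and of the glucocorticoid-induced genes were -0.35 and -0.27, beside 0.02 over all genes. The medians of the macrophage markers, 17 of 18 of which had negative values, and of the stromal markers were -0.72 and -0.24 in the same comparison, and their part in these lists was not tested. The medians of the other 6 lists lay between 0.02 and 0.08. Among the genes with the smallest p in a list, Mt2 had -0.64 (limma adjusted p = 0.0806), Cpt2, which imports fatty acids into mitochondria, had 0.47 (adjusted p = 0.0879), and Cat, which encodes catalase, had 0.34 (adjusted p = 0.094). Slc2a4 had 0.44 (adjusted p = 0.171).

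**Figure D4:**
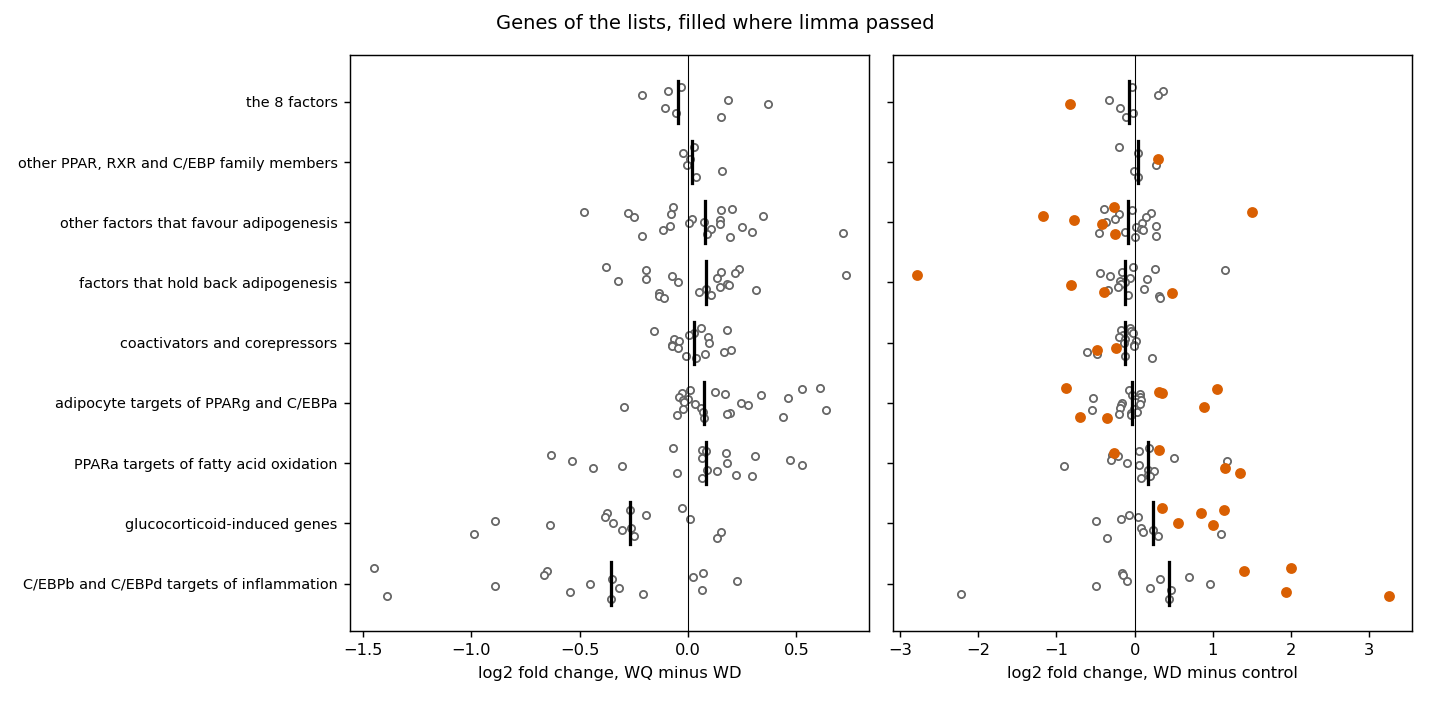
Log2 fold change (horizontal axes) of WQ minus WD mice on the left and WD minus control mice on the right, each point 1 gene of the 8 factors or of the 8 lists, filled where limma passed, with a bar at the median. On the left no point is filled, and on the right Klf15 is the filled point of the 8 factors, at -0.83.

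Within diets, Pparg, Cebpa and Klf15 varied together from mouse to mouse over all arrays. With the mean of each diet subtracted, 27 of the 28 pairs of members had a positive Pearson r over the 27 arrays. By permutation within diets (100000 draws, two-sided, adjusted over 28 pairs) 3 pairs passed by r and 8 by Spearman's rho, and 3 passed by both. Pparg and Cebpa had r = 0.80 (permutation p = 5e-05, adjusted 0.0014) and rho = 0.71 (p = 3e-05, adjusted 0.00084). Pparg and Klf15 had r = 0.77 (permutation p = 0.00013, adjusted 0.00182) and rho = 0.62 (p = 0.00072, adjusted 0.0101). Cebpa and Klf15 had r = 0.69 (permutation p = 0.00137, adjusted 0.0128) and rho = 0.51 (p = 0.0133, adjusted 0.0468). Without the 2 arrays farthest from the median these r were 0.60, 0.61 and 0.54. Among the WQ, WD and control mice alone, r was 0.48, 0.67 and 0.87 for Pparg and Cebpa, 0.73, 0.52 and 0.83 for Pparg and Klf15, and 0.10, 0.19 and 0.92 for Cebpa and Klf15, so that the last rests on the control mice. Without the 6 arrays with markers of other tissues the r of the same 3 pairs were 0.54, 0.51 and 0.34 over 21 arrays. Of the 28 pairs, 10 had a negative r over these 21 arrays, among them 6 of the 7 pairs of Cebpb. Over all arrays the r of Cebpb ran from -0.15 with Ebf1 to 0.49 with Cebpd.

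**Figure D5:**
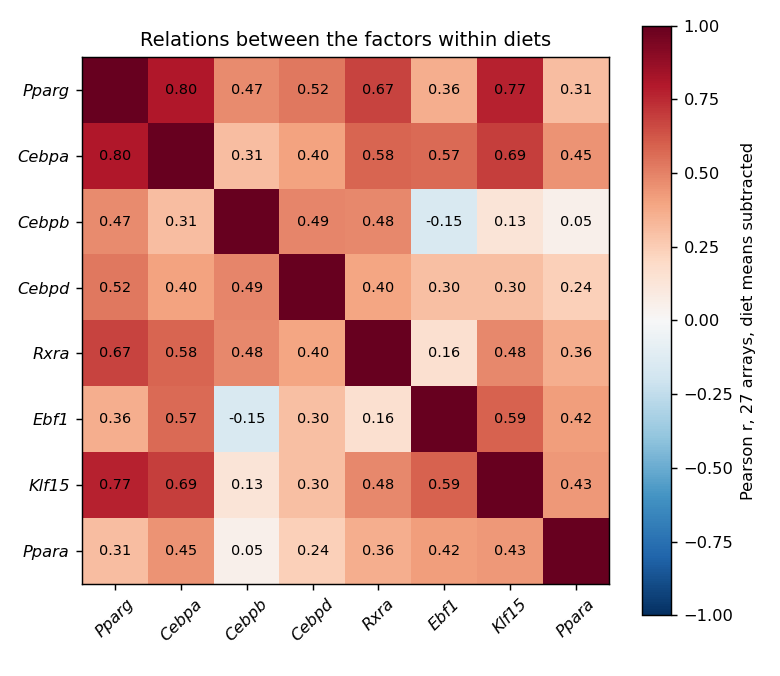
Pearson r between the 8 members over 27 arrays with the mean of each diet subtracted, in colour from -1 to 1, the diagonal being each member with itself. The highest value is 0.80, for Pparg and Cebpa, and the one pair below 0 is Cebpb and Ebf1.

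Genes read on the same array share its depth of signal and its tissue makeup, and the makeup differed between arrays as given above. As a description over the 27 arrays, the genes most like each member within diets were taken from 9089 genes of above-median signal. For Klf15 they were Cryzl2 (r = 0.86), Pdha1, a subunit of pyruvate dehydrogenase (0.86), and Dhtkd1, an enzyme of lysine breakdown (0.85), and these had 0.85, 0.83 and 0.74 without the 6 arrays with markers of other tissues. Pdha1 averaged 11.16 ± 0.26 log2 units in WQ, 10.96 ± 0.11 in WD and 11.48 ± 0.29 in control mice (SD, n = 9) and fell in WD mice (log2 fold change -0.52, limma adjusted p = 0.000962), as did Dhtkd1 (-0.78, adjusted p = 0.00483). For Ebf1 they were Podn, which encodes the matrix protein podocan (r = 0.89), Insr, the insulin receptor (0.89), and Ebf2, its close relative (0.88), and all 3 held 0.85 to 0.90 without the 6 arrays. Podn fell in WD mice (-0.97, limma adjusted p = 0.00466), with means of 7.51 ± 0.55 in WQ, 7.26 ± 0.17 in WD and 8.23 ± 0.73 in control mice (SD, n = 9). Those of Cebpd were Slc10a6 (r = 0.81) and the immediate early genes Zfp36 (0.80) and Fos (0.79), and those of Cebpb were Sh3kbp1 (0.86), Mcl1, a survival factor (0.85), and Sec14l1 (0.85).

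Those of Cebpa were Sufu, an inhibitor of hedgehog signalling (r = 0.91), Bid (0.88) and Hk2, a hexokinase (0.87), with 0.81, 0.79 and 0.72 without the 6 arrays. For Pparg they were Rgs7 (r = 0.89), Pmp22 (0.86) and Bid (0.86), of which Rgs7 and Pmp22 had 0.40 each without the 6 arrays and Bid 0.74. For Rxra they were Ppm1f, Notch3 and She (r = 0.88 each), with 0.69, 0.68 and 0.73 without them, and for Ppara Fmo5, a flavin monooxygenase (0.76), H2-Q10 (0.73) and Baz1b (0.72).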

How the data were processed

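Each of 27 mice gave EAT RNA for 1 Affymetrix array. The authors ran Microarray Suite and GeneSpring, and what they deposited is the signal intensity of each probe set on a linear scale. Its medians ran from 25.2 to 54.4 per array, and whether the arrays had been scaled by another measure was not tested. Here 64 control probe sets were left out, the others were quantile-normalized, raised to a floor of 1 and put on the log2 scale, which compresses the highest and spreads the lowest signals. Of 45101 probe sets, 34945 name 1 gene, 932 several and 9160 none, and only the first were used, 18 of them for the 8 members. Genes were tested with limma 3.58.1 in R 4.3.3, with a mean for each diet, a variance trend and Benjamini-Hochberg adjustment over 18193 genes. The variance of a gene was shared by the 3 diets. The standard errors, intervals and p-values for WQ minus WD thus also carry the spread of the control mice, which was often the widest. A fit of only the diets compared was among the alternatives, and no member passed for WQ against WD in it. Relations and RNA quality ratios were tested by permutation in Python 3.11.15 (scipy 1.17.1). The limma code was tested on simulated data for WD minus control, with noise of the same spread in each diet, unlike the real arrays. The permutation tests and the other steps were not tested in this way.

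The members and lists were chosen with earlier results of these data known. Besides the members, the genes named were, per list, up to 3 with the smallest p for WD against control and up to 2 for WQ against WD, and, per member, the 3 most like it within diets among genes above the median mean. Fabp4, Lpl, Fkbp5 and Per1 were added after their values were seen, and Angptl4 was also named outside this rule. Alternatives concerned normalization, floor, pseudocount, filter, probe sets, variance model, the methods' test (Tukey's after Welch's test over the diets), a replicate block and left-out arrays. The limit of 3 log2 units for arrays with markers of other tissues, with its use for the lists, named genes and relations, was chosen after seeing the data, as was leaving arrays out for the RNA quality ratios. The number of arrays limits the precision.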

Additional observations from a re-analysis of the deposited data

Results flagged for a closer look

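In each diet the highest or lowest of the 9 mice was compared with its nearest neighbour, and a gap above Dixon's critical value was taken as standing apart, which chance gives in about 1 in 20 groups. Of 204 groups read, 10 held such a mouse, and of the 24 groups of members, 2 did. Ebf1 on WD replicate 5 was 9.24, below the next at 9.46 (gap 0.564 of the range), and Klf15 on WQ replicate 3 was 9.13, above the next at 8.48 (0.526). WQ replicate 3 also stood apart above the others in Acaca (0.562), Acadvl (0.547) and Pdha1 (0.555) and below them in Cdkn1a (0.757). Pdha1 was read because its pattern within diets was most like that of Klf15, so its gap is not a separate result. The mean of WQ replicate 3 over the macrophage markers, 8.64, was the lowest of the WQ mice. Without WQ replicate 3 the Klf15 difference between WQ and WD was 0.27. Control replicate 6 stood apart below the others in Srebf1 (0.553) and Notch3 (0.522). WD replicate 2 stood apart above in Notch3 (0.503), and WD replicate 4 above in Insr (0.497).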

How the results depend on the processing

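The Klf15 fall between WD and control mice passed under every one of the 15 alternatives, and no member passed for WQ against WD under any of them. Between WD and control mice 2 members were lower, in place of 1, with genes above the median mean, with the mean of all probe sets, by the methods' test unadjusted and without the 11 arrays with markers of other tissues, and 3 with array weights and without the 6 arrays with stronger markers. One further member each passed by the first 3 of these (Ebf1) and without the 11 arrays (Pparg), while Ebf1 and Rxra joined with array weights and Pparg and Rxra without the 6 arrays. In the other direction 1 was higher, in place of 0, with the median shift and with the replicate block, Cebpb each time (block adjusted p = 0.0481). Leaving out 1 array gave 0 to 1 higher and 1 to 2 lower. Between WQ and control mice 1 was lower with array weights (Klf15), in place of 0. Without the 11 or the 6 arrays 2 were lower (Klf15 and Pparg). Without the 6 arrays 4.78% of all genes were lower between WD and control mice and 0.511% between WQ and control mice. Without the 11 arrays these shares were 4.23% and 0.901%. Shares over all genes were not counted for the other alternatives. For the 3 diets together, 3 passed with array weights, 2 by the methods' test unadjusted and without the 11 or the 6 arrays, and 1 to 2 with 1 array left out. With the median shift 10 pairs of members passed by both correlations, in place of 3. The cause of these changes was not tested.

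Several small differences turned their sign. For WD minus control, no normalization gave Pparg 0.013 and Cebpa 0.011, the median shift gave Pparg 0.12, Cebpa 0.12 and Rxra 0.000394, the mean of all probe sets gave Rxra 0.014, and leaving out 1 array gave -0.16 to 0.027 for Pparg and -0.13 to 0.038 for Cebpa. For WQ minus WD, Cebpa had 0.016 with no normalization and -0.070 to 0.00655 with 1 array left out, and Ppara -0.22 to 0.060 with 1 left out. For WQ minus control, Cebpa had 0.027 with no normalization, 0.00885 with the median shift and -0.16 to 0.00324 with 1 array left out. Cebpd had -0.035 with array weights, -0.10 without the 11 arrays and -0.18 without the 6, and Rxra -0.055, -0.11 and -0.16 in the same settings and -0.045 to 0.086 with 1 array left out. The actin ratio for WQ minus control was -0.11 without the 11 arrays. The deviations of same-numbered mice correlated by -0.51 to 0.37, and 10 of 27 pairs exceeded 0.1. Mice of different numbers were not compared, so these values cannot decide whether the replicate numbers of the labels pair the mice. The replicate block changed no other call of a member. Ppara had the lowest mean log2 signal of the members, 6.19, beside a median of 6.46 over all genes, and the part of background in its spread was not tested. The number of arrays limits every member.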
